A study of Homo sapiens with 6 samples.

Results

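The genes described here are *AQP3*, which encodes the water and glycerol channel aquaporin 3, and 4 genes of the sodium-potassium pump, *ATP1B1*, *ATP1B3*, *FXYD3* and *FXYD5*. They were picked by their current symbols from the 58884 Ensembl genes of the count tables, and all 5 were found. They were chosen because earlier results of this same comparison were known, so their own differences are given as a description without a test. Further genes of the aquaporin family and of sodium, potassium, water and glycerol transport were tested. The question was whether *ATP1B1* was lower alone after treatment with DAPT, or together with the other β subunit and the FXYD partners.

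HSC-4 is an established human oral squamous cell carcinoma line, and DAPT is an inhibitor of γ-secretase, the protease that frees the intracellular domain of Notch receptors. RNA was sequenced from 3 libraries of HSC-4 cells treated with 50 μM DAPT for 24 h and from 3 control libraries of the same line. By the study's methods the controls received the vehicle DMSO. The deposited description instead names normal growth medium, to which DAPT was added, and no vehicle, and the control count columns carry the letters GM. If the controls had growth medium alone, effects of DAPT and of its vehicle cannot be told apart. A single cell line and a single dose and time were measured. Nothing in the labels says that the replicates were separate cultures, so the p-values measure only the spread between these libraries.

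The sodium-potassium pump moves sodium out of the cell and potassium in, at the cost of ATP. Its α subunit holds the ATP site and the ion path. The β subunit is a glycosylated partner that the α subunit needs to fold, leave the endoplasmic reticulum and reach the plasma membrane, and it also links neighbouring epithelial cells. FXYD proteins are small membrane proteins that bind the pump and tune its transport. Aquaporin 3 is an aquaglyceroporin, found in the plasma membrane of basal keratinocytes and other epithelial cells, where it passes water, glycerol and hydrogen peroxide.

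The 6 libraries held between 12276313 and 16317672 counted reads. Levels are given as CPM, read counts scaled to library size after TMM normalization. A floor of 3 reads equals 0.187 to 0.248 CPM, and it covers counting error only. All 5 Notch target genes examined to check the treatment were downregulated in edgeR's quasi-likelihood test, with log2 fold changes from -0.77 for *HES1* to -2.45 for *HES2*. Of all tested genes, 18.0% were lower and 17.2% higher in that test. These 5 targets, like the other lists, were chosen with earlier results of these data known. The epithelial markers were present: *CDH1* had a mean of 512 CPM in the controls and 617 CPM with DAPT, and *KRT5* had 2701 and 1315 CPM. *KRT14*, which marks basal cells, was low, with 3.17 CPM in the controls, and 1 DAPT library held no read of it. The summed level of the 7 squamous epithelial markers was 4706 to 4879 CPM in the controls and 2885 to 3039 CPM with DAPT. *KRT5* was the largest part of this sum. The markers did not move together: *CDH1* and *EPCAM* (308 and 372 CPM) were higher with DAPT and the other 5 lower. Of these, *KRT14* passed the filter on low counts through its controls alone, so a call other than lower was hardly possible for it. Control replicate 1 stood apart from the other libraries. Its 6 fibroblast markers summed to 553 CPM, against 50.0 to 58.3 CPM in the other 5 libraries, and *COL1A2* was at 215 CPM against at most 2.02 CPM. The values of the 5 genes are therefore also given without that library. The part of these markers in the results was not tested, and in bulk RNA fewer cells of a type and less RNA per cell cannot be told apart.

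*AQP3* had the largest difference of the 5 genes. It lies on chromosome 9 of GRCh38, from 33441156 to 33447596, on the minus strand, and it was counted at 183, 193 and 199 CPM in the control libraries and at 81.3, 80.7 and 79.2 CPM in the DAPT libraries. Every DAPT library was below every control library, and the DAPT libraries lay within a narrow range. The mean was 191 ± 7.88 CPM (SD, n = 3) in the controls and 80.4 ± 1.06 CPM (SD, n = 3) with DAPT. Its log2 fold change was -1.25 (standard error, SE, 0.05), a ratio of 0.420, and it was -1.28 without control replicate 1. Of the 15001 tested genes, 180 had a lower log2 fold change than *AQP3*.

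*ATP1B1*, the first β subunit of the pump, differed by nearly as much. It lies on chromosome 1, from 169105697 to 169132722, on the plus strand. The control libraries held 385, 357 and 369 CPM and the DAPT libraries 166, 158 and 165 CPM, so the groups were far apart without overlap. The mean was 370 ± 14.1 CPM (SD, n = 3) and 163 ± 4.69 CPM (SD, n = 3), respectively. For *ATP1B1* the log2 fold change was -1.18 (SE 0.05), a ratio of 0.440, and it was -1.15 without control replicate 1. A lower log2 fold change than that of *ATP1B1* was found in 196 tested genes.

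*ATP1B3*, the other β subunit counted at more than a few reads, was lower by a smaller amount. It lies on chromosome 3, from 141876124 to 141926549. Its level was 476, 468 and 460 CPM in the controls and 355, 387 and 387 CPM with DAPT. The DAPT libraries were again all below the controls, with a gap that was small beside that of *ATP1B1*. *ATP1B3* had a log2 fold change of -0.32 (SE 0.05), a ratio of 0.804, which was -0.30 without control replicate 1. A lower log2 fold change was found in 2240 tested genes.

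*FXYD5*, also called dysadherin, a pump partner known for weakening cell-cell contacts, had overlapping groups. It lies on chromosome 19, from 35154730 to 35169883. The control libraries had 215, 250 and 234 CPM and the DAPT libraries 260, 236 and 221 CPM. Each group held a low and a high library. *FXYD5* had a log2 fold change of 0.04, with a 95% interval from -0.09 to 0.17, and it was -0.02 without control replicate 1.

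*FXYD3*, a pump regulator of epithelial cells also called MAT8, was low and variable. It lies on chromosome 19, from 35115879 to 35124324, upstream of *FXYD5* on the same strand. Its counts were 146, 154 and 134 reads in the controls and 183, 154 and 131 reads with DAPT, which is 9.09, 11.1 and 11.1 CPM against 11.9, 11.3 and 10.1 CPM. The groups overlapped. The log2 fold change of *FXYD3* was 0.10, with a 95% interval from -0.14 to 0.34, and it was 0.00 without control replicate 1. The level of *FXYD3* is uncertain. Other annotated genes on the same strand, mainly ENSG00000285526, share 40.7% of its exonic bases, reads there were not counted for either gene, and ENSG00000285526 itself held 0 reads in each library. The other 4 genes share no exonic base with a gene on their own strand.

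**Figure D1:**
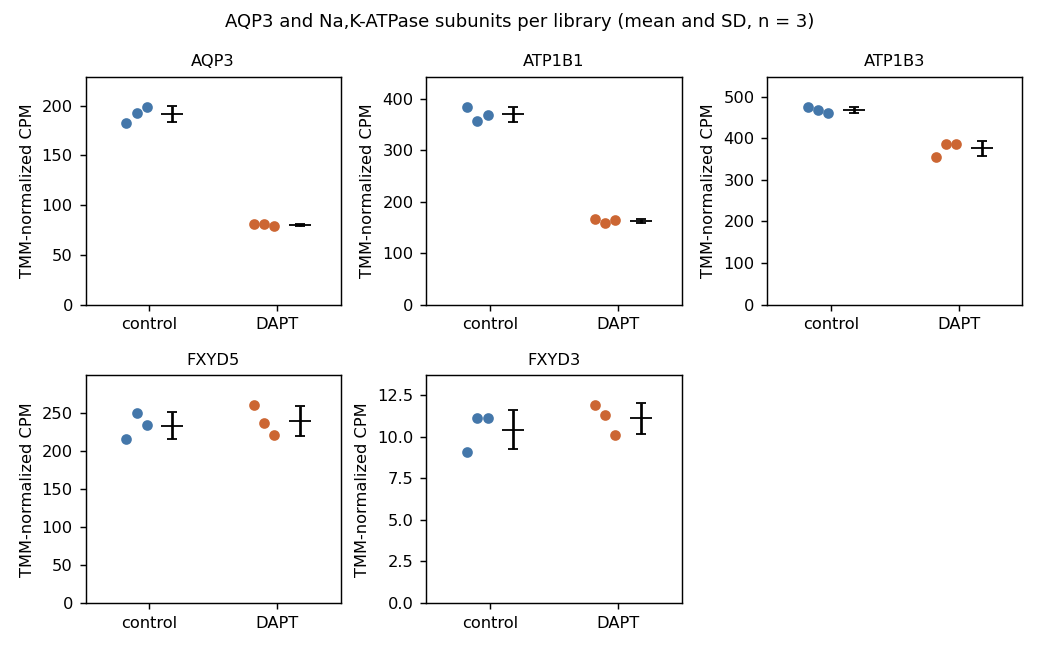
Each panel plots the TMM-normalized CPM of 1 gene (vertical axis from 0) in the 3 control libraries (blue) and the 3 DAPT libraries (orange), with the mean and SD of each group in black. *AQP3* and *ATP1B1* sit near 80.4 and 163 CPM with DAPT, far below their controls, *ATP1B3* is lower by less, and the groups of *FXYD5* and *FXYD3* overlap.

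Thus 3 of the 5 genes, *AQP3*, *ATP1B1* and *ATP1B3*, had every DAPT library below every control library, which was the case in 22.7% of all tested genes. All 5 genes passed the filter on low counts. Over all tested genes the log2 fold changes had a median of 0.01. With DAPT, *AQP3* and *ATP1B1* thus stood in the lowest part of the distribution of log2 fold changes, while both FXYD genes lay near its centre.

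**Figure D2:**
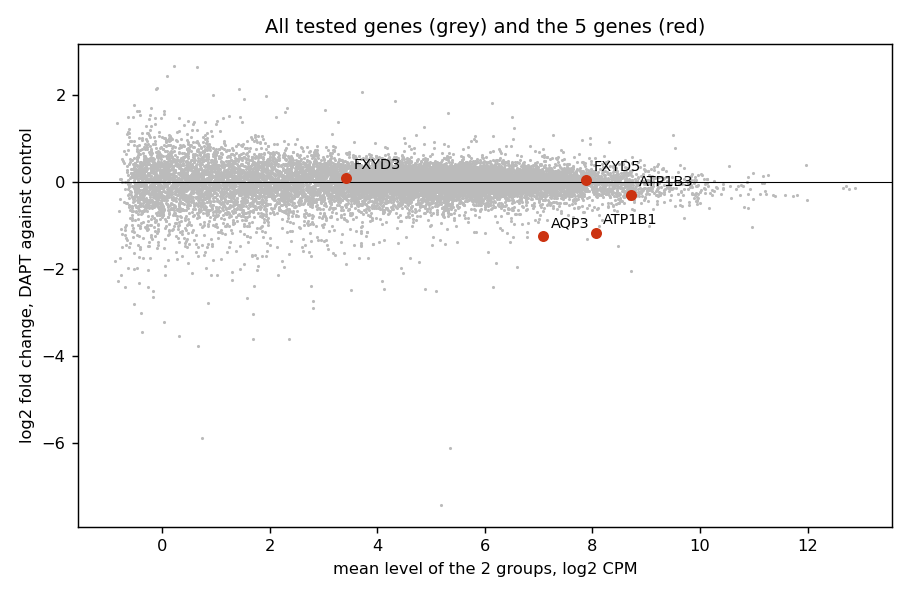
Each grey point is 1 of the 15001 tested genes, with the mean level of both groups in log2 CPM on the horizontal axis and the log2 fold change of DAPT against control on the vertical axis. *AQP3* (-1.25) and *ATP1B1* (-1.18) lie below the band that most genes of their level form, *ATP1B3* (-0.32) at its lower side, and *FXYD5* and *FXYD3* near 0.

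Among the β and FXYD genes, *ATP1B1* was not the only lower gene: *ATP1B3* was lower too, by less, while *FXYD5* and *FXYD3* overlapped between the groups. A difference in this direction without overlap was found in 22.7% of all tested genes. The lower level of *ATP1B3* thus does not by itself show a joint change of the β subunits. The log2 fold change of *ATP1B1* minus that of its partner was -0.87 for *ATP1B3*, -1.22 for *FXYD5* and -1.28 for *FXYD3*. Each of these differences kept its sign and stayed within the spread between replicates when any single library was left out. They rest on the value that chose *ATP1B1* and are given without a test.

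Other β and FXYD genes were at or near 0. The counts of *ATP1B2* and *ATP1B4* were at most 1 read in any library, and those of *FXYD1*, *FXYD2*, *FXYD4*, *FXYD6* and *FXYD7* at most 4 reads. The 3 genes of the related proton-potassium pumps, *ATP12A*, *ATP4A* and *ATP4B*, held 0 reads in all libraries. None of these genes passed the filter, so no difference could be detected for them at this depth.

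Levels of different genes were compared per length, as RPKM, the CPM divided by the exon length in kilobases. In the controls *ATP1B3* was highest with 179 ± 3.15 RPKM (SD, n = 3), followed by *ATP1B1* with 125 ± 4.78, *FXYD5* with 77.9 ± 5.92, *AQP3* with 65.8 ± 2.71 and *FXYD3* with 3.13 ± 0.349 RPKM. No neighbours in this order overlapped between libraries. With DAPT the order changed at 1 place. *ATP1B3* was at 144 ± 6.91 RPKM, *FXYD5* at 79.9 ± 6.43, *ATP1B1* at 55.1 ± 1.58, *AQP3* at 27.6 ± 0.365 and *FXYD3* at 3.32 ± 0.278 RPKM (SD, n = 3 each). *FXYD5* thus stood below *ATP1B1* in every control library and above it in every DAPT library. The lengths are those of all annotated exons together, so a gene whose cells use short transcripts has an RPKM that is too low. The RPKM of *FXYD3* can also be too low, as 40.7% of its exonic bases could hold no counted read.

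The RPKM of *ATP1B1* divided by that of *ATP1B3* was 0.714, 0.673 and 0.710 in the controls and 0.413, 0.360 and 0.378 with DAPT, without overlap. As a share of the RPKM of both β subunits, *ATP1B1* made up 41.1 ± 0.795% (SD, n = 3) in the controls and 27.7 ± 1.40% (SD, n = 3) with DAPT. The β subunits together had 304 ± 6.96 and 199 ± 6.11 RPKM (SD, n = 3 each). Most of the β subunit RPKM thus came from *ATP1B3* in both groups. The ratio of *FXYD5* to *ATP1B1* was 0.552, 0.694 and 0.628 in the controls and 1.54, 1.48 and 1.33 with DAPT. For *FXYD5* to *ATP1B3* it was 0.436 ± 0.0373 and 0.558 ± 0.0719 (SD, n = 3 each), with all DAPT libraries above the controls. The level of *FXYD5* itself overlapped between the groups while those of both β subunits were lower. *AQP3* and *ATP1B1* differed by a like amount, so their ratio overlapped, with 0.484, 0.550 and 0.547 in the controls and 0.497, 0.521 and 0.487 with DAPT.

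**Figure D3:**
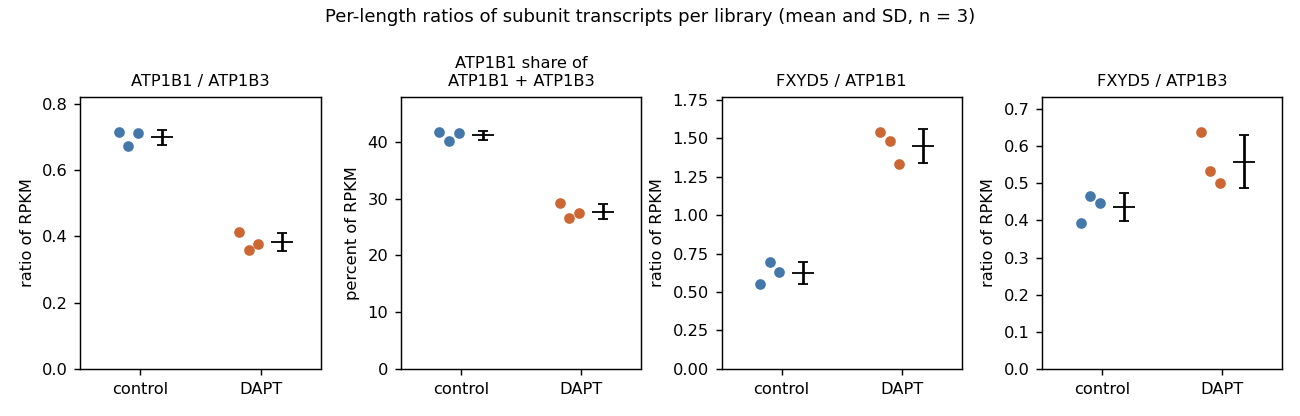
Each panel plots a ratio of RPKM values, or a percentage of them, on a vertical axis from 0, for the 3 control (blue) and 3 DAPT (orange) libraries with the mean and SD in black. The ratio of *ATP1B1* to *ATP1B3* goes from a mean of 0.699 to 0.384, and the ratios of *FXYD5* to *ATP1B1* and to *ATP1B3* are above the controls in all DAPT libraries.

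*AQP3* was the main aquaporin transcript of these cells, with 95.7% to 96.1% of the summed RPKM of the 14 aquaporin genes in the controls and 89.3% to 91.0% with DAPT. Of the 13 other aquaporins, 3 passed the filter, and 1 of these passed edgeR's test, where 35.2% of all tested genes did. That 1 was *AQP10*, an aquaglyceroporin known from the gut, with 15, 13 and 16 reads in the controls and 4, 8 and 2 reads with DAPT. The log2 fold change of *AQP10* was -1.63 (SE 0.44), with an adjusted p = 0.0065 from edgeR, at a level of about 1.07 CPM in the controls. *AQP10* passed the filter through its controls alone. A call other than lower was thus hardly possible for it, and this call carries little weight. *AQP11*, an aquaporin of the endoplasmic reticulum, had 65, 69 and 62 against 93, 90 and 68 reads, with a log2 fold change of 0.35 that did not pass (adjusted p = 0.0859, edgeR). *AQP1* had a log2 fold change of -0.29 (adjusted p = 0.542, edgeR) at 11 to 21 reads. Each of the other 10 aquaporins had at most 4 reads per library, the widely studied *AQP5* at most 2.

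Upstream sequences are shown for *AQP3*, the gene with the largest difference, and for both FXYD genes, whose groups overlapped. Of the 5 genes, only the FXYD genes held the letters of the core of the RBPJ site, the DNA motif bound by the Notch transcription complex. The genes shown were picked with these values known, and a link between the letters and the differences was not tested. The 250 bases before the RefSeq start of all 5 genes were searched on both strands for the RBPJ core with the letters TGGGAA, the E-box with the letters CACGTG, the TATA box with the letters TATAAA, the CCAAT box, and the GC box with the letters GGGCGG. Matches are in capitals, on either strand, and adjacent capitals can hold 2 overlapping matches. The sequences come from RefSeq (GRCh38.p14), read 5′ to 3′ on the gene's strand, and stop before the first base that the count annotation calls exonic.
AQP3, chr9:33447597-33447843, minus strand: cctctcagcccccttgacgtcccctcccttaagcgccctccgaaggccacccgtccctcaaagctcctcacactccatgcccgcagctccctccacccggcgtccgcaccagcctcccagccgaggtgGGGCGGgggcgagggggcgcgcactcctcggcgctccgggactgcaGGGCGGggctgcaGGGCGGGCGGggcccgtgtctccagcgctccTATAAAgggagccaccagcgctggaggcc
FXYD3, chr19:35117750-35117999, plus strand: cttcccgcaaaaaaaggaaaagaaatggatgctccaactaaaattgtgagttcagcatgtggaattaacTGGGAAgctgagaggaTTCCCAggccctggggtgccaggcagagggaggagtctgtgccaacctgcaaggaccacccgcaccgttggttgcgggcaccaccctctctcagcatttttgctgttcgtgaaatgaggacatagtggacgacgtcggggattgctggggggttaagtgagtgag
FXYD5, chr19:35154485-35154729, plus strand: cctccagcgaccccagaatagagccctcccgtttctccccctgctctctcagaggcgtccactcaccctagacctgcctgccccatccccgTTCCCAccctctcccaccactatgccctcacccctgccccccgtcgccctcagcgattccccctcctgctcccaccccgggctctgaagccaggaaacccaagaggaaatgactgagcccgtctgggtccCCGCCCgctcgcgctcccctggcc

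*AQP3* held a TATA box that begins at position -32 from its start, where the base before the start is -1, and 4 GC boxes between -122 and -59. TGGGAA was found 2 times at *FXYD3*, at -181 and on the opposite strand at -165, and 1 time at *FXYD5*, at -159 on the opposite strand. In *AQP3*, *ATP1B1* and *ATP1B3* these letters did not occur in the window. Of all 35116 RefSeq promoters in the table, 20.8% held the RBPJ core in the same window, 10.7% the TATA box, 32.0% the CCAAT box, 42.6% the GC box and 6.34% the E-box. *ATP1B1* had 1 CCAAT at -129 and 2 GC boxes, and *ATP1B3* had 1 CCAAT and 4 GC boxes. The 250 bases of *ATP1B1* are all exonic in a longer annotated transcript, and so are 29 of those of *ATP1B3*, so these are not printed. The window of *FXYD3* lies inside the gene as the count annotation draws it. A match is a run of letters and no measure of binding.

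The wider setting of sodium, potassium, water and glycerol transport was taken from lists of 100 further genes, of which 65 were tested. Of these, 14 were lower and 12 higher in edgeR's test at an adjusted p under 0.05 after Benjamini-Hochberg correction, with a median log2 fold change of 0.00. Of all tested genes 35.2% passed, 18.0% as lower and 17.2% as higher, which is near the lists' counts of 14 and 12 of 65. The lists thus moved in both directions, and of the tested ones *SGK1* and *ANO1* had a log2 fold change beyond that of *AQP3*. So did *AQP10*, at 4, 8 and 2 reads with DAPT, which passed the filter through its controls alone.

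Among 12 tested regulators of the pump and of sodium transport, 2 were lower and 5 higher. The shares over all tested genes were 18.0% lower and 17.2% higher. *SGK1*, a kinase that raises the surface level of sodium channels and pumps, was at 21.2, 24.1 and 21.4 CPM in the controls and at 8.25, 7.53 and 8.99 CPM with DAPT. The groups of *SGK1* were well apart, with a log2 fold change of -1.43 (SE 0.10), and edgeR gave an adjusted p = 4.4e-10. *HSD11B2*, which inactivates cortisol, was lower at about 2 CPM (-0.81, adjusted p = 0.0305, edgeR). *WNK4* (0.46), *TSC22D3* (0.43), *WNK1* (0.23), *NR3C1*, the glucocorticoid receptor (0.16), and *NEDD4L*, a ubiquitin ligase that *SGK1* restrains (0.15), were higher. The mineralocorticoid receptor gene *NR3C2* had at most 1 read per library. The calls of *HSD11B2*, *NR3C1* and *NEDD4L* did not hold when some single libraries were left out. Without control replicate 2 the edgeR adjusted p was 0.051 for *HSD11B2*, 0.146 for *NR3C1* and 0.134 for *NEDD4L*. Without DAPT replicate 1 it was 0.107 for *NR3C1* and 0.0687 for *NEDD4L*. Without control replicate 3 it was 0.136 for *HSD11B2* and 0.102 for *NR3C1*, and without DAPT replicate 3 it was 0.142 and 0.0891.

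Of 8 tested genes of sodium entry, 1 passed as lower, where 18.0% of all tested genes did. The count was 2 without control replicate 1 or without the filter on low counts, and 0 without DAPT replicate 2. *SCNN1A*, the α subunit of the epithelial sodium channel, was lower (log2 fold change -0.18, adjusted p = 0.008, edgeR), while *SCNN1B* and *SCNN1G* had at most 2 reads per library. *SLC12A2*, the sodium-potassium-chloride cotransporter, had a log2 fold change of 0.07 and did not pass (adjusted p = 0.385, edgeR). The call of *SCNN1A* was lost without DAPT replicate 2 (adjusted p = 0.052, edgeR).

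Of 17 tested potassium and chloride genes of cell volume control, 4 were lower and 2 higher. Among all tested genes 18.0% were lower and 17.2% higher. With single libraries left out, 4 to 6 genes of this list were lower and 2 to 3 higher. *ANO1*, a calcium-activated chloride channel, had a difference of the size of *AQP3*, from 20.8, 26.3 and 23.5 CPM to 9.09, 7.90 and 10.2 CPM. The log2 fold change of *ANO1* was -1.37 (SE 0.11), with an adjusted p = 2.93e-09 from edgeR. *LRRC8C*, a subunit of the volume-regulated anion channel, was lower (-0.75, adjusted p = 1.96e-07, edgeR), as were *KCNN4* (-0.40) and *LRRC8D* (-0.25). *LRRC8A*, the subunit each such channel needs, had a log2 fold change of 0.15 (adjusted p = 0.11, edgeR) and passed as higher without control replicate 3 (adjusted p = 0.0427). *CLCN3* (0.40) and *SLC12A4*, a potassium-chloride cotransporter (0.37), were higher.

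Other P-type pumps were compared because they share their mechanism with the sodium-potassium pump. Of 8 tested calcium pump genes, 1 was lower and 2 were higher, against 18.0% and 17.2% of all tested genes. *ATP2A2*, the pump of the endoplasmic reticulum, had a log2 fold change of -0.15 (adjusted p = 0.011, edgeR), and *ATP2B1*, a plasma membrane pump, one of 0.33 (adjusted p = 2.8e-05, edgeR). *ATP2B4* was higher by 0.14 (adjusted p = 0.0322, edgeR). This call was lost without control replicate 2 (adjusted p = 0.155), control replicate 3 (0.12), DAPT replicate 2 (0.108) or DAPT replicate 3 (0.0585).

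Of 7 tested genes of the response to high tonicity, 2 were lower and 1 higher, and 2 were higher without control replicate 1. These counts stand beside 18.0% lower and 17.2% higher among all tested genes. *NFAT5*, the transcription factor of this response, had a log2 fold change of 0.07 (adjusted p = 0.434, edgeR). Its known targets that passed went both ways. *AKR1B1*, which makes sorbitol, was lower (-0.61, adjusted p = 3.29e-08, edgeR), as was *SLC6A6*, the taurine transporter (-0.34). *SLC5A3*, the myo-inositol transporter, was higher (0.35). The remaining tested genes, *SLC38A2* (0.07), *HSPA4L* (-0.12) and *HSPA1B* (-0.01), did not pass. *SLC6A12* was not tested, with 9, 11 and 4 reads in the controls and 1 read in each DAPT library. Of 10 tested genes that handle glycerol, which passes through aquaporin 3, 3 were lower and 2 higher. The same shares of all tested genes, 18.0% and 17.2%, stand beside these counts. *MGLL*, which releases glycerol from monoglycerides (-0.62), *GPD2* (-0.34) and *PLD1* (-0.21) were lower. *PNPLA2*, the first lipase of triglyceride breakdown, was higher (0.51, adjusted p = 4.98e-04, edgeR), as was *GPAM* (0.22). *PLD2*, a phospholipase known to bind aquaporin 3, had a log2 fold change of -0.08 (adjusted p = 0.354, edgeR). The call of *GPAM* was lost without control replicate 3 (adjusted p = 0.0869) and without DAPT replicate 2 (adjusted p = 0.0999), both from edgeR.

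**Figure D4:**
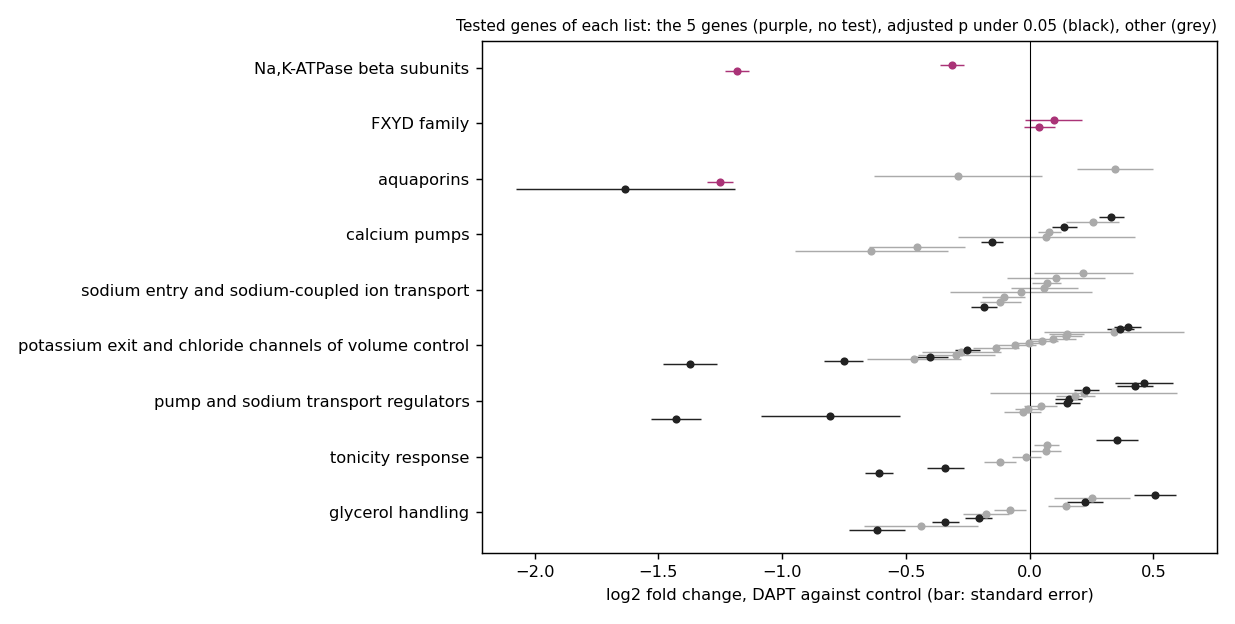
Each point is the log2 fold change of DAPT against control of 1 tested gene (horizontal axis) with its standard error, grouped by list (vertical axis). The 5 genes (purple, given without a test) include the values -1.25 and -1.18. Genes with an adjusted p under 0.05 are black and the others grey. The remaining lists spread to both sides of 0 with *AQP10* (-1.63), *SGK1* (-1.43) and *ANO1* (-1.37) farthest to the left. *AQP10* passed the filter through its controls alone.

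The profiles of the 5 genes were last compared with those of 10139 other genes with a mean of at least 10 CPM. The measure was the root mean square difference of log2 CPM over the 6 libraries, after each gene was centred on its own mean. Nearest to *AQP3* were *CA9*, carbonic anhydrase 9 (0.0524), *CXCL6* (0.0648) and *CXCL1* (0.0710), where the median difference to *AQP3* was 0.636. Nearest to *ATP1B1* were *VSNL1* (0.0411), *NTRK2*, a neurotrophin receptor (0.0529), and *GJA1*, the gap junction protein connexin 43 (0.0596), against a median of 0.604. The profiles of *ATP1B3*, *FXYD3* and *FXYD5* were flatter and had closer neighbours, such as *RCOR2* at 0.0126 from *ATP1B3*. As the treatment sets the largest part of the *AQP3* and *ATP1B1* profiles, such nearness says mainly that these genes had a like log2 fold change.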

How the data were processed

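The deposited count tables hold read counts per Ensembl gene, without normalization, for 6 libraries of 1 cell line. According to the study's methods the authors trimmed single-end reads with Trim Galore and mapped them to GRCh38 with HISAT2. Per the file headers, featureCounts 1.6.3 counted reads over exons on 1 strand with the Ensembl release 96 annotation. By its defaults, reads in several places or genes were not counted. The submitters' processing notes also name HTSeq and DESeq2.

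Groups and replicate numbers came from the sample titles. Of 58884 genes, 58472 were matched to GENCODE symbols. Genes were filtered by group (minimum count 10), TMM-normalized and tested with the robust quasi-likelihood F test of edgeR 4.0.16 (R 4.3.3), with Benjamini-Hochberg adjustment over 15001 genes and a threshold of 0.05 without a fold limit. Standard errors were derived from the test statistic, and 95% intervals use its degrees of freedom. The procedure was run on simulated data with far fewer changed genes than these data had calls, so its error rates there need not hold here. Genes and lists were chosen with earlier results of these data known. Named genes were the 5 genes, members of the lists and the 3 nearest profiles (log2 CPM, prior count 2). The alternatives were DESeq2 1.42.0, limma-voom (limma 3.58.1), RLE or no scaling factors, other filters, a fit that is not robust, a replicate block, each library left out, and a prior count of 0.5 for the profiles. Some genes of the lists are not reported here, and protein sequences were not used.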

Additional observations from a re-analysis of the deposited data

How the results depend on the processing

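The log2 fold changes of the 5 genes moved by less than the spread between replicates under all alternatives, except that of *AQP3*, which was -1.20 when libraries were scaled by size alone. That scaling moved the median log2 fold change of all genes from 0.01 to 0.06, raised the number of higher genes in the transport lists from 12 to 19, and moved the share of higher genes among all calls from 48.7% to 61.5%. Under it the call of *ATP2A2* was lost (adjusted p = 0.0643, edgeR) and *AQP11* (adjusted p = 0.0494, edgeR) and *LRRC8A* (adjusted p = 0.0327, edgeR) passed as higher. With DESeq2, *HSD11B2* (adjusted p = 0.10), *NR3C1* (0.0638), *ATP2B4* (0.0674) and *GPAM* (0.0568) were lost. Without the low-count filter *ATP2B4* was lost (adjusted p = 0.0564, edgeR). With at least 10 counts in every library *AQP10* was not tested. Leaving out single libraries gave log2 fold changes from -1.28 to -1.23 for *AQP3*, -1.21 to -1.15 for *ATP1B1*, -0.33 to -0.27 for *ATP1B3*, 0.00 to 0.16 for *FXYD3* and -0.02 to 0.09 for *FXYD5*. The transport lists then had 14 to 16 genes lower and 9 to 13 higher.

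The correlations of same-numbered libraries' deviations from their group means were between 0.00382 and 0.0252 across genes, so no pairing by number was seen. The labels do not say whether same-numbered libraries shared a culture or day, and these values cannot decide it. With the replicate block, the log2 fold change was -1.25 for *AQP3* and -1.18 for *ATP1B1*, and 13 genes of the transport lists were lower and 12 higher, and *HSD11B2* was no longer called (adjusted p = 0.0511, edgeR). The low counts of *AQP10* and *FXYD3* limit the precision of their values.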
